A study of Capra hircus with 20 samples.

Results

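Gene expression in the hypothalamus was compared between goats of 180 days (M6) and goats of 1 day (D1). The comparison used 10 of the 20 libraries of the series, 5 at each of these stages, and the stage was read from the label of each library. All goats were healthy female Jining grey goats under the same feeding management, the goats were not treated, and each goat gave 1 strand-specific library of total RNA depleted of rRNA. The other 10 libraries, 5 at 60 days (M2) and 5 at 120 days (M4), entered the test as part of the estimate of the spread. The authors deposited a value in FPKM (fragments per kilobase of exon, scaled to the mapped reads of the library) for each of 21071 genes. The tissue was dissected hypothalamus, so every value is a mean over its neurons, glia and vessels, and fewer cells of a type cannot be told apart from less RNA per cell.

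The hypothalamus joins the nervous and endocrine systems. Neurons that release gonadotropin-releasing hormone (GnRH) drive the pituitary and the ovary, and neurons that make kisspeptin, neurokinin B and dynorphin (KNDy neurons) pace their pulses before and after puberty. The brain around them is still growing at birth: late-born glia divide, axons and synapses settle, and oligodendrocytes wrap axons in myelin. Myelin is rich in cholesterol, which the brain makes for itself because cholesterol of the blood does not pass the blood-brain barrier.

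Several libraries stood apart from the others of their stage. MOG, a glycoprotein on the surface of myelin, was at 6.91 FPKM in D1 replicate 4 and 7.77 in M6 replicate 4, against 56.3 to 102 in the other D1 libraries and 44.3 to 123 in the other M6 libraries. D1 replicate 4 and M6 replicate 2 carried DRD1, a dopamine receptor typical of the striatum, at 151 and 56.4 FPKM, and the other 8 libraries held at most 3.34. In M6 replicate 3 the 20 genes of synaptic vesicles summed to 100.1 FPKM, while the other 9 libraries ranged from 705 to 1485. Genes that define hypothalamic neurons were uneven as well. OXT (oxytocin) was at 22.6, 0.231, 0.888, 0 and 0.311 FPKM in D1 replicates 1 to 5 and at 2.32, 36.9, 0.804, 413 and 279 in M6 replicates 1 to 5, and NKX2-1, a transcription factor of the basal hypothalamus, was listed at 0 in D1 replicate 2 and M6 replicate 1. The summed level of 20 hypothalamic transcription factors was 8.37 to 64.2 FPKM at D1 and 11.7 to 55.9 at M6, and 11 pituitary genes summed to at most 3.24 FPKM in any of these libraries. Some fits left libraries out, weighted them or took their myelin level as a covariate. Beyond those fits, the part of these differences in the results was not tested.

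**Figure D1:**
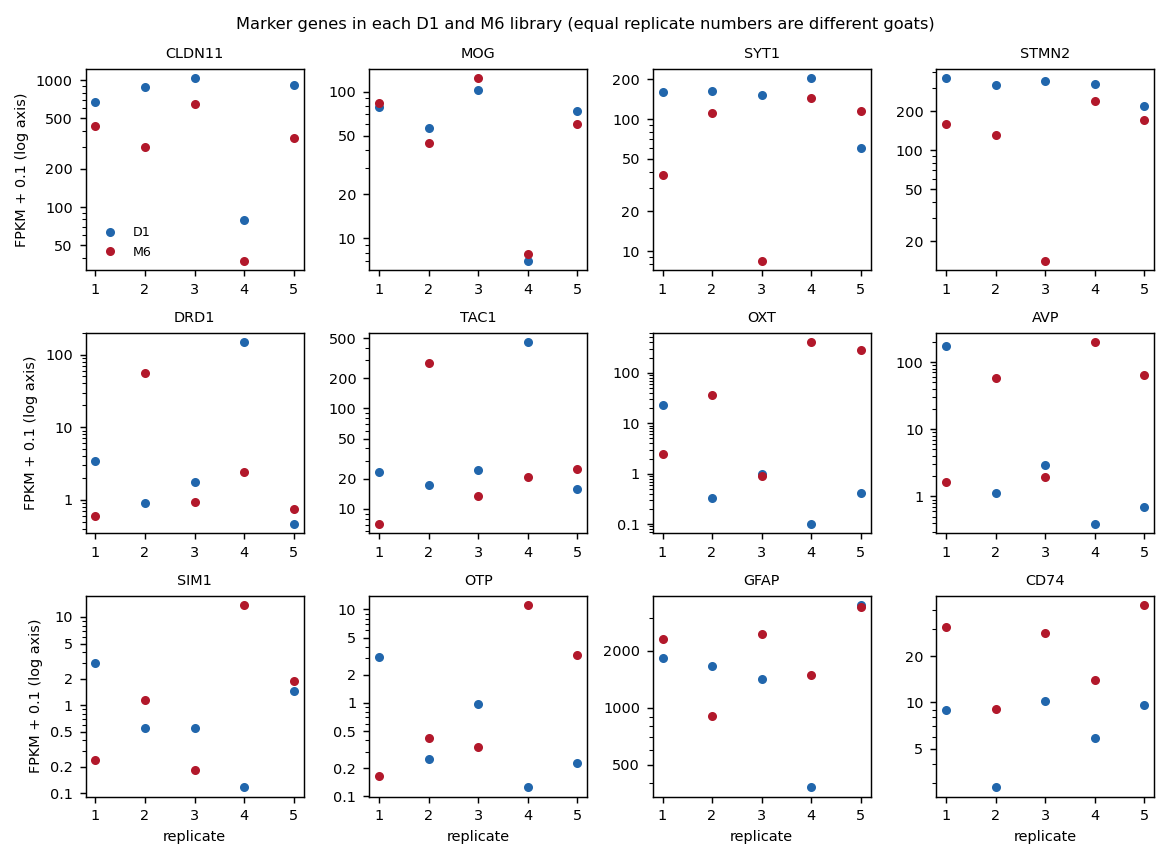
FPKM plus 0.1 on a log axis for 12 marker genes in D1 (blue) and M6 (red) replicates 1 to 5, where equal replicate numbers are different goats. CLDN11 and MOG are low in replicate 4 of both stages, SYT1 and STMN2 are low in M6 replicate 3, DRD1 and TAC1 are high in D1 replicate 4 and M6 replicate 2, and OXT, AVP, SIM1 and OTP differ widely among libraries of the same stage.

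A single gene separated the stages at the thresholds used, which were an adjusted p under 0.05 together with a log2 fold change of 1 or more in either direction. Of the 16771 genes tested, 0 were higher and 1 was lower at M6 by limma, which is 0.00596% of the genes. At an unadjusted p under 0.05 there were 558 genes higher at M6 (3.33%) and 685 lower (4.08%), 7.41% in all. In 228 genes (1.36%) every M6 library lay above every D1 library, and in 248 (1.48%) every M6 library lay below. The median log2 fold change of all genes was -0.054, with 7527 of the 16771 genes higher and 9244 lower in mean on the log2 scale. The counts of members higher or lower in the lists below are to be read beside these, and members of a list share the same libraries. All other genes are given with their values as differences that did not pass. With library quality weights in limma, which give less weight to libraries that stand apart, 34 genes were called higher (0.203%) and 61 lower (0.364%). Under quantile normalization the share of genes at an unadjusted p under 0.05 that were higher at M6 was 53.9%, against 44.9% in the main test.

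**Figure D2:**
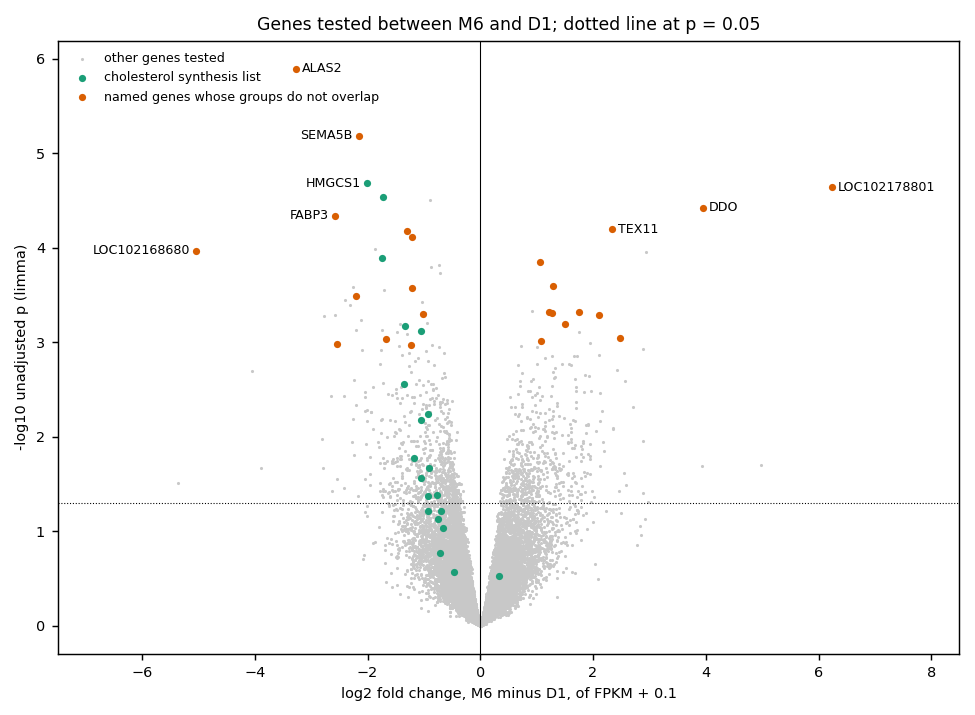
Log2 fold change of FPKM + 0.1 between M6 and D1 (x axis) against the unadjusted p of limma as -log10 (y axis) for the 16771 genes tested. Points right of 0 are higher at M6. Orange points are the 24 named genes without overlap between the stages and green points are the 20 genes of cholesterol synthesis, of which 19 lie left of 0.

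The gene that passed was ALAS2, the enzyme that starts heme synthesis in developing red blood cells (gene ID 102175385, ARS1.2 chromosome X, 25494562 to 25521331). Its FPKM was 0.9396, 2.75, 1.404, 0.548 and 0.381 in D1 replicates 1 to 5 and 0, 0.0203, 0, 0.0393 and 0 in M6 replicates 1 to 5. Every D1 library was above every M6 library, and ALAS2 was close to 0 at M6. It fell by 3.27 on the log2 scale of FPKM + 0.1 (standard error 0.48, adjusted p = 0.0213 by limma), a scale on which the pseudocount limits the change of a gene this low. The mean FPKM was 1.204 ± 0.948 in the D1 libraries (SD, n = 5) and 0.0119 ± 0.0176 in the M6 libraries, with 0.118 ± 0.111 and 0.0129 ± 0.0289 in those of M2 and M4. The level of the gene was low at D1 too, and the call was lost without any of D1 replicates 1, 2 and 3 or M6 replicates 1 to 4, where the adjusted p was between 0.0572 and 0.141. The call was also lost with only D1 and M6 libraries (adjusted p = 0.125), with a pseudocount of 1 or 0.01 FPKM (0.0808 and 0.0836), with TPM rescaling (0.0889), with a replicate block (0.0575), and with mapping rate (0.349) or Q30 (0.211) as a covariate. In the fits that lost the call by leaving out 1 library, the log2 fold change stayed between -3.35 and -2.91.

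HBBC, a hemoglobin gene, and a pair of genes next to a globin gene had lower means at M6 too. LOC102168680, a protein-coding gene 1403 bases from the globin gene HBM on chromosome 25 (ARS1.2 162293 to 163079), was at 12.1, 28.7, 24.3, 3.44 and 6.04 FPKM in the D1 libraries and at 0.0436, 0, 0, 0.898 and 3.14 in the M6 libraries. The groups did not overlap, with a log2 fold change of -5.05 (standard error 1.06, adjusted p = 0.132). LOC102168959, the next gene on the other side, was at 2.11, 25.9, 12.4, 2.17 and 11.03 FPKM at D1 and at 2.86, 1.17, 0, 0.988 and 2.66 at M6, and these groups overlapped. The annotation gives no name to either gene, and reads of near-identical copies could have been split between them. HBBC, the beta-globin that young and anemic goats make, was at 1.399, 129, 25.9, 46.5 and 59.1 FPKM at D1 and at 1.35, 0.0674, 8.37, 4.58 and 1.08 at M6. HBBC was high in 4 of the 5 D1 libraries, while D1 replicate 1 lay within the range of M6, and its log2 fold change was -4.04 (standard error 1.14, adjusted p = 0.401). HBM was listed at 0 in all of these libraries. Of the 6 globin and erythroid genes that passed the filter on low values, ALAS2 was called, HBBC was lower and EPB42, a protein of the red cell membrane, was higher at an unadjusted p under 0.05. EPB42 averaged 0.655 FPKM at D1 and 1.63 at M6. The list median was -0.20, and 11 of the 20 genes of the list were not found by symbol in the table.

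**Figure D3:**
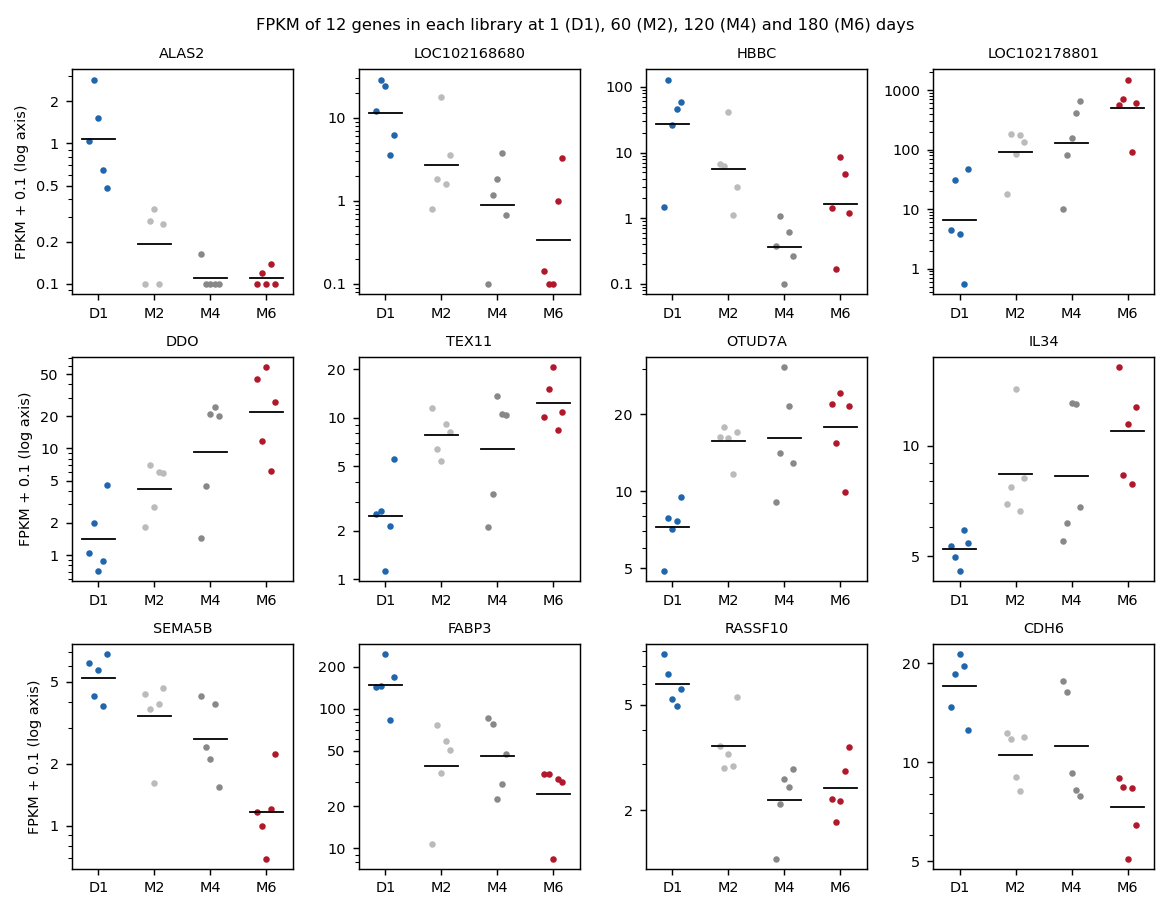
FPKM plus 0.1 on a log axis for 12 genes in each library at D1 (blue), M2 and M4 (grey) and M6 (red), with bars at the mean of the log values of 5 libraries. ALAS2 is near the lowest plotted value at M6, LOC102178801 and DDO have all M6 libraries above all D1 libraries, and SEMA5B and FABP3 have all M6 libraries below.

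Among the genes that were higher at M6 without overlap, 12 were chosen by the smallest p, and 0 of these passed the adjusted threshold. The largest log2 fold change of these 12 was that of LOC102178801, an unnamed protein-coding gene (ARS1.2 chromosome 5, 97147754 to 97151204). It was at 4.31, 30.8, 3.68, 0.454 and 47.5 FPKM in D1 replicates 1 to 5 and at 555, 721, 1509.5, 90.3 and 619 in M6 replicates 1 to 5. The lowest M6 library was the myelin-poor replicate 4, and the lowest D1 library was replicate 4 of that stage. The log2 fold change was 6.24 (standard error 1.14, adjusted p = 0.0874). The mean FPKM was 119 ± 68.9 at M2 and 264 ± 267 at M4, between those of D1 and M6. With the myelin level of each library as a covariate, an alternative chosen after the data were seen, its log2 fold change was 6.22 with an adjusted p of 0.000101 by limma. LOC102178801 was called in 4 of the 25 alternatives. Its adjusted p was 0.549 with mapping rate and 0.554 with Q30 as a covariate.

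DDO encodes D-aspartate oxidase, which breaks down D-aspartate, an amino acid that acts at NMDA receptors and is abundant in the newborn brain. DDO was at 0.942, 1.91, 0.604, 0.788 and 4.44 FPKM in the D1 libraries and at 44.8, 11.7, 58.3, 5.996 and 27.2 in the M6 libraries, and the groups did not overlap. Its log2 fold change was 3.95 (standard error 0.75, adjusted p = 0.0902). SLC22A16, a carnitine transporter gene that lies 6919 bases from DDO on chromosome 9, averaged 0.294 FPKM at D1 and 3.21 at M6, and the log2 fold change was 2.88 (standard error 0.76, adjusted p = 0.331). On the other side of DDO, METTL24 had a log2 fold change of 0.51 (standard error 0.32, adjusted p = 0.741). DDO was at 4.61 ± 2.25 FPKM at M2 and 14.3 ± 10.6 at M4, and it was called under library quality weights with an adjusted p of 0.0021. It was called in 3 of the 25 alternatives. Its adjusted p by limma was 0.549 with mapping rate and 0.664 with Q30 as a covariate.

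TEX11, a meiosis gene, averaged 2.69 ± 1.64 FPKM at D1 and 12.9 ± 4.94 at M6, and the log2 fold change was 2.34 (standard error 0.47, adjusted p = 0.113). The annotated span of TEX11 also holds PLAC1, PHF6 and HPRT1, so its values could hold reads of transcripts of that region. OTUD7A, a deubiquitinase of neurons, was at 4.77 to 9.37 FPKM at D1 and 9.87 to 24.2 at M6. IL34, a ligand of the microglial receptor CSF1R, was at 5.24, 4.89, 4.45, 5.81 and 5.35 FPKM in the D1 libraries and at 16.3, 8.24, 11.3, 7.79 and 12.7 in the M6 libraries. The D1 values of IL34 were tightly grouped and the M6 values were spread, with a log2 fold change of 1.07 (standard error 0.28, adjusted p = 0.327). CA12, a carbonic anhydrase of the cell surface, averaged 2.39 and 8.29 FPKM, and SLC25A42, a mitochondrial carrier of coenzyme A, averaged 2.85 and 6.81. IGFALS, which binds insulin-like growth factors in blood, was low throughout, at 0.449 and 1.55 FPKM. The other 4 genes have no name in the annotation: LOC102187665, LOC102179296, LOC102185698 and LOC102173052 had log2 fold changes of 1.06, 1.75, 1.22 and 2.47. The adjusted p of these 12 genes ranged from 0.0874 to 0.327.

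Of the 12 genes chosen among those lower at M6 without overlap, ALAS2 was called and 11 were not. SEMA5B, a semaphorin that guides axons and is made by neural progenitors, was at 6.08, 4.17, 5.63, 3.699 and 6.72 FPKM in D1 replicates 1 to 5 and at 1.07, 0.897, 0.593, 1.11 and 2.14 in M6 replicates 1 to 5. Every M6 library was below every D1 library and the log2 fold change was -2.16 (standard error 0.36, adjusted p = 0.0549). It missed the threshold narrowly, was called in 7 of the 25 alternatives and averaged 3.55 FPKM at M2 and 2.74 at M4. With mapping rate or Q30 as a covariate, the adjusted p of SEMA5B by limma was 0.549 or 0.671. FABP3, a fatty acid binding protein of muscle and brain, was at 141, 144, 245, 82.3 and 168 FPKM at D1 and at 33.6, 33.9, 8.32, 31.3 and 29.6 at M6. The lowest D1 value was well above the highest M6 value, and the log2 fold change was -2.58 (standard error 0.50, adjusted p = 0.0961). FABP3 was called in 3 of the 25 alternatives. By limma it had -1.65 with mapping rate (adjusted p = 0.549) and -2.24 with Q30 (0.727) as a covariate. Without M6 replicate 3, its lowest library, FABP3 had -2.20 (adjusted p = 0.291). The annotated span of FABP3 overlaps that of LOC108637396, so reads could be shared.

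RASSF10, a gene of the RAS association domain family, averaged 5.94 ± 1.13 FPKM at D1 and 2.39 ± 0.653 at M6. CDH6, a cadherin of developing neural tissue, averaged 17.2 ± 3.61 and 7.35 ± 1.62. NOP16, a nucleolar protein of ribosome assembly, averaged 37.4 ± 8.03 and 18.5 ± 3.94. These genes had log2 fold changes of -1.30, -1.22 and -1.02, with adjusted p of 0.113, 0.116 and 0.245. CDCP1, a transmembrane substrate of SRC kinases, and CAPN12, a calpain protease, were lower genes at 2.51 and 2.55 FPKM at D1 and 0.684 and 0.347 at M6. NREP, a small protein of regenerating and immature neurons, was at 77.7 to 208 FPKM at D1 and 27.6 to 71.97 at M6. LOC102176025 lies within UBQLN2 on chromosome X, so reads could be shared. It averaged 36.4 FPKM at D1 and 15.6 at M6, while UBQLN2 had a log2 fold change of -0.17 (standard error 0.26, adjusted p = 0.887). The unnamed LOC102178586, on chromosome 23, averaged 7.53 and 1.604 FPKM.

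Genes of cholesterol synthesis were lower at M6 in 19 of 20 members tested. Their median log2 fold change was -0.93, against -0.054 for all genes, and 13 of the 20 had an unadjusted p under 0.05, all lower, where 4.08% of all genes did. None of the 20 passed the adjusted threshold. HMGCS1, which makes the precursor HMG-CoA, was at 727, 766, 1140.2, 220.2 and 703 FPKM in D1 replicates 1 to 5 and at 189.8, 125, 229, 118 and 144 in M6 replicates 1 to 5. D1 replicate 4 was the lowest D1 library and M6 replicate 3 the highest M6 library, and these were the values by which the groups overlapped. The log2 fold change was -2.01 (standard error 0.37, adjusted p = 0.0874). MVD, which makes isopentenyl diphosphate, averaged 30.9 ± 14.4 FPKM at D1 and 8.34 ± 2.51 at M6, and the log2 fold change was -1.74 (standard error 0.37, adjusted p = 0.142).

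The pathway's later steps are given by their means. FDPS, which makes farnesyl diphosphate, averaged 69.2 and 24.99 FPKM at D1 and M6. SQLE, the squalene epoxidase, averaged 103 and 49.2, and MSMO1, which removes methyl groups from the sterol ring, averaged 365 and 132. DHCR7, a reductase of the last steps, had a log2 fold change of -0.91. SREBF2, the transcription factor that switches the pathway on, was the exception with 0.32 (standard error 0.30, adjusted p = 0.811). The adjusted p of the members ranged from 0.0874 for HMGCS1 to 0.811 for SREBF2.

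D1 replicate 4 held the lowest D1 value in all 20 of these genes. Without it, 16 of the 20 genes had every M6 library below every D1 library, where 2.92% of all genes did, and with it 0 of 20 did, against 1.48% of all genes. Leaving this library out raised the lowest D1 value in all 20 genes, which it did not do for every gene tested. The share of all genes is therefore not a like measure, and the count is no test of the list. The median of the list without that library was -1.29 and 5 of its genes were called by limma, of 19 genes called lower in all (0.113%). D1 replicate 4 was also poor in myelin, and M6 replicate 4 was the matching M6 library in that respect. With both left out, the list median was -1.24 and 4 of its genes were called, among 3 genes called higher (0.0179%) and 11 lower (0.0656%). With the myelin level of each library as a covariate, the list median was -0.93 and 4 of its genes were called, among 22 genes called higher (0.131%) and 24 lower (0.143%). HMGCS1, MVD and FDPS were called there, with adjusted p of 0.00307, 0.0197 and 0.0359. HMGCS1 and MVD were each called in 4 of the 25 alternatives. With mapping rate or Q30 as a covariate, the adjusted p by limma was 0.549 or 0.671 for HMGCS1 and 0.723 or 0.727 for MVD. Under library quality weights, 10 of the 20 were called, all lower, among 34 genes called higher (0.203%) and 61 lower (0.364%). These weights came from the same libraries. D1 replicate 4 had a weight of 0.569, and the other D1 libraries had 1.518 to 2.355. Over the 25 alternatives the list median stayed between -1.29 and -0.81. At M2 and M4 the list medians against the same D1 libraries were -0.83 and -0.84. HMGCS1 averaged 203 FPKM at M2 and 185 at M4, near its M6 level. In M4 vs. D1, MVD was called lower by limma (log2 fold change -2.06, adjusted p = 0.0389), among 9 genes called in all (0.0537%).

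**Figure D4:**
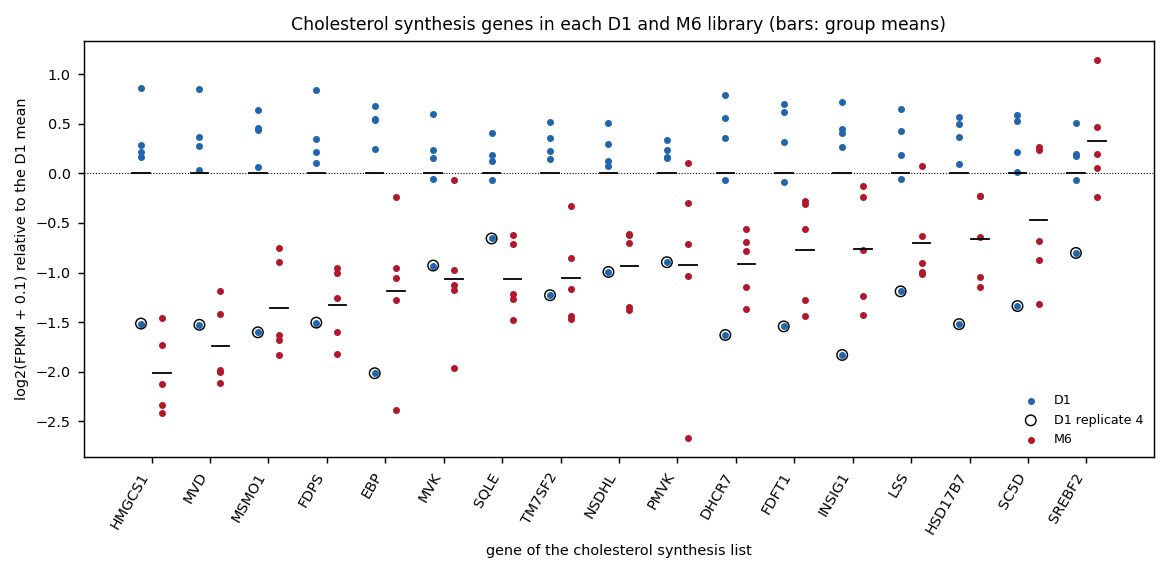
Log2(FPKM + 0.1) relative to the D1 mean (y axis) of 17 of the 20 genes of cholesterol synthesis (x axis, ordered by log2 fold change), in 5 D1 libraries (blue) and 5 M6 libraries (red), with bars at group means and D1 replicate 4 circled. The circled D1 library lies below the highest M6 library in all 17 genes, and the other 4 D1 libraries lie near or above 0.

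Genes of myelin itself ranged widely among libraries. Of 19 mature myelin genes, 10 had higher and 9 lower means on the log2 scale, 0 had an unadjusted p under 0.05, and the median was 0.17. MOG was at 78.7, 56.3, 102, 6.91 and 73.1 FPKM at D1 and at 83.6, 44.3, 123, 7.77 and 60.03 at M6, a range within each stage far wider than the difference between them. The list median changed sign to -0.42 without D1 replicate 4 and to -0.086 without M6 replicate 3, and it was 0.61 without M6 replicate 4. It also changed sign under library quality weights (-0.068) and with mapping rate as a covariate (-0.67). Without D1 replicate 4, 4 of the 19 genes (21.1%) had every M6 library below every D1 library, where 2.92% of all genes did. That library was poor in myelin, so leaving it out raised the lowest D1 value of genes such as MOG, and the count is no test of the list. Without both D1 replicate 4 and M6 replicate 4, 4 were lower and 1 was higher without overlap, against 4.88% and 3.12% of all genes. HAPLN2, a link protein at nodes of Ranvier, had the smallest p of the list, with a log2 fold change of 1.56 (standard error 0.78, adjusted p = 0.691). ASPA, which breaks down N-acetylaspartate in oligodendrocytes, and CLDN11, the claudin of myelin, followed with 0.84 and -1.06. When the myelin level of each library was taken as a covariate, HAPLN2 was called higher (adjusted p = 0.0011) and CLDN11 lower (adjusted p = 0.00957). These are differences relative to the mean of a list to which both genes belong. Among 12 genes of oligodendrocyte progenitors, 0 had an unadjusted p under 0.05. PDGFRA, their growth factor receptor, had -0.35, GPR17, of cells about to mature, had -1.23, and VCAN, a matrix proteoglycan, had 0.47.

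Genes of dividing cells had low levels at both stages. Of 33 cell cycle genes, 11 were lower at M6 and 1 was higher at an unadjusted p under 0.05, 0 passed the adjusted threshold, and the median log2 fold change was -0.73. With a pseudocount of 1 FPKM that median was -0.28, and among the 18 members with a mean of at least 1 FPKM it was -0.27. TOP2A, the topoisomerase of replicating chromosomes, was at 5.85, 2.598, 7.701, 8.86 and 0.685 FPKM in D1 replicates 1 to 5 and at 1.05, 1.15, 0.505, 0.285 and 0.531 in M6 replicates 1 to 5. D1 replicate 5 lay within the M6 range, and the other 4 D1 libraries were above all M6 libraries. The log2 fold change was -2.40 (standard error 0.56, adjusted p = 0.239). DLGAP5, a protein of the mitotic spindle, averaged 1.32 FPKM at D1 and 0.123 at M6, and UBE2C, which marks mitotic cyclins for breakdown, averaged 1.64 and 0.255. BIRC5 and MKI67 were the 2 genes of the list (6.06%) whose M6 libraries all lay below their D1 libraries, against 1.48% of all genes. MKI67, the common marker of cycling cells, did not exceed 0.616 FPKM in any D1 library. CCNA2, a cyclin, was the member that was higher, with a log2 fold change of 0.65 (standard error 0.27, adjusted p = 0.63). Without D1 replicate 5, TOP2A, DLGAP5 and KIF11 were called lower, among 4 genes called higher and 4 lower in that fit (0.0239% each). Leaving that library out removed the D1 value of TOP2A that lay within the M6 range, so these calls are no test of the list. The list medians at M2 and M4 against the same D1 libraries were -0.72 and -0.86.

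Of 23 genes of collagens and other matrix of vessels and meninges, 8 were lower and 1 was higher at an unadjusted p under 0.05, and the median was -0.78. COL3A1, the fibrillar collagen of vessel walls, was at 28.5, 15.9, 24.1, 7.85 and 40.97 FPKM at D1 and at 10.1, 2.23, 5.53, 2.22 and 5.35 at M6. Only D1 replicate 4 fell within the range of M6, and the log2 fold change was -2.21 (standard error 0.56, adjusted p = 0.284). COL4A1, a collagen of the basement membrane, was at 4.29 to 8.28 FPKM at D1 and 2.18 to 4.16 at M6 without overlap, with -1.15 (standard error 0.34, adjusted p = 0.437). LAMB1, a laminin of the same membrane, had -0.97 (standard error 0.31, adjusted p = 0.464). COL11A1 was the member that was higher, with 0.86 (standard error 0.38, adjusted p = 0.638). By comparison, 14 genes of endothelial cells and the blood-brain barrier had 0 members at an unadjusted p under 0.05 and a median of -0.11, which was -0.30 to 0.033 without single libraries. CLDN5, the claudin of brain vessels, had a log2 fold change of -0.42 (standard error 0.38, adjusted p = 0.799), ABCB1, a pump of the barrier, had -0.20 and CDH5, the endothelial cadherin, had -0.51. Without D1 replicate 5, the D1 library highest in COL3A1, the median of the matrix list was -0.43, and 3 members were lower at an unadjusted p under 0.05.

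Genes of immature neurons were lower at M6 in 20 of 24 members, with a median log2 fold change of -0.67 and 4 members at an unadjusted p under 0.05, all lower. With mapping rate as a covariate the median was -0.14 and 1 member was under that p. NREP, described above, had the smallest p. CD24, a surface protein of young neurons, was at 12.6, 9.68, 5.82, 26.004 and 8.55 FPKM at D1 and at 2.399, 3.11, 1.02, 6.96 and 3.404 at M6, and the log2 fold change was -1.91 (standard error 0.56, adjusted p = 0.437). The CD24 groups overlapped through D1 replicate 3 and M6 replicate 4 alone. STMN2, which regulates microtubules of growing axons, was at 357, 320.2, 344, 325 and 218 FPKM at D1 and at 161, 130.5, 13.996, 239 and 172 at M6. With mapping rate as a covariate its log2 fold change was -0.26. M6 replicate 3 held by far the lowest STMN2 value, and M6 replicate 4, at 239, was the only M6 library above the lowest D1 library. The log2 fold change was -1.57 (standard error 0.61, adjusted p = 0.617). Of 30 axon guidance genes, 3 were lower and 0 higher at an unadjusted p under 0.05, with a median of -0.37. Without M6 replicate 3 that median was -0.035, with 14 members higher and 16 lower in mean and 1 at an unadjusted p under 0.05. The 3 genes of the full comparison were the ephrin receptors EPHA5 (-1.05) and EPHA3 (-1.23) and the SLIT receptor ROBO2 (-0.72). Among 12 genes of the matrix around neurons, 2 were lower and 0 higher at an unadjusted p under 0.05. The link protein HAPLN1 had -1.50 (standard error 0.45, adjusted p = 0.446) and the proteoglycan NCAN had -0.75 (standard error 0.23, adjusted p = 0.446), and CRTAC1 had -1.25.

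Lists of mature neuronal genes had negative medians that moved toward 0 without M6 replicate 3. Of 20 genes of synaptic vesicles, 19 had a lower mean at M6 and the median was -0.82, with 1 member at an unadjusted p under 0.05. Without M6 replicate 3 the median was -0.27. VAMP2, the vesicle SNARE, was at 74.1, 51.5, 51.7, 45.7 and 44.3 FPKM at D1 and at 26.5, 30.03, 17.8, 44.7 and 51.7 at M6, and the log2 fold change was -0.72 (standard error 0.29, adjusted p = 0.63). RAB3A, a small GTPase of vesicle docking, did not overlap between the stages, with -1.09 (standard error 0.57, adjusted p = 0.708), and the calcium sensor SYT1 had -1.28 (standard error 0.68, adjusted p = 0.711). Of 22 genes of voltage-gated channels the median was -0.68, and -0.18 without M6 replicate 3. The sodium channel subunit SCN3B had the smallest p, with -1.41 (standard error 0.51, adjusted p = 0.571), and SCN2A and KCNA2 followed with -1.16 and -1.002. Of 21 genes of GABA signaling and chloride transport the median was -0.53, and -0.14 without that library, and the GABA receptor subunits GABRA3 and GABRB2 had -1.32 and -1.30. Ionotropic glutamate receptors, 16 genes, had a median of -0.12 (-0.26 to 0.011 without single libraries), with GRIN3B lower (-1.15) and GRIK3 higher (0.86) at an unadjusted p under 0.05, and GRIN3A at -0.54. The mapping rate of the libraries tended to be higher at D1. With it as a covariate the median of the vesicle genes was 0.041, that of the GABA genes 0.08 and that of the channel genes -0.068. As the rate went with the stage, this fit cannot fully tell mapping rate and age apart.

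**Figure D5:**
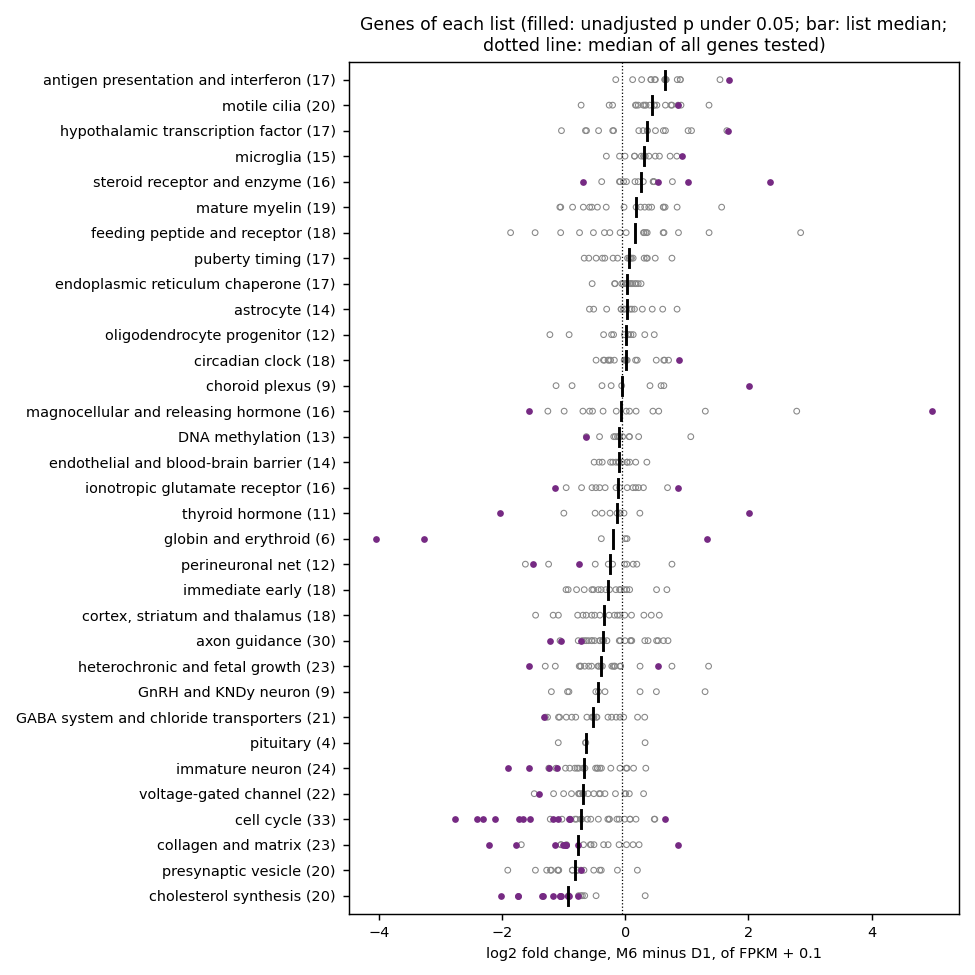
Log2 fold change between M6 and D1 of every tested gene in 33 lists, with the number of genes in parentheses, filled points at an unadjusted p under 0.05, a bar at the list median and a dotted line at the median of all genes. Cholesterol synthesis has the lowest list median (-0.93) and antigen presentation and interferon the highest (0.64).

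Of 17 genes of antigen presentation and of the interferon response, 16 had a higher mean at M6, the median log2 fold change was 0.64, and 1 had an unadjusted p under 0.05. CD74, the invariant chain of MHC class II, was at 8.87, 2.699, 10.1, 5.77 and 9.56 FPKM in the D1 libraries and at 30.8, 9.03, 28.4, 13.9 and 43.1 in the M6 libraries. M6 replicate 2 was the only M6 library within the D1 range, and the log2 fold change was 1.68 (standard error 0.56, adjusted p = 0.504). PSMB9, a subunit of the immunoproteasome, had 0.89, and MX1, an antiviral GTPase, had 0.89. The median without D1 replicate 4 was 0.39. Of 15 microglial genes, 12 had a higher mean at M6, with a median of 0.30. It was 0.13 without D1 replicate 3, 0.15 without M6 replicate 4 and 0.17 without M6 replicate 5. TYROBP, a signaling adaptor of microglia, had a log2 fold change of 0.93 (standard error 0.39, adjusted p = 0.633), and CTSS, a lysosomal protease, and LAPTM5, a lysosomal membrane protein, had 0.73 and 0.55. The summed FPKM of the 15 microglial genes was 173 to 306 at D1 and 259.8 to 401 at M6. Astrocyte genes had a median of 0.033 and 0 of 14 at an unadjusted p under 0.05. AGT, angiotensinogen, had 0.84, the glutamate transporter SLC1A2 had -0.58 and ALDH1L1, a folate enzyme, had 0.61.

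Of the 9 GnRH and KNDy genes that passed the filter on low values, 0 had an unadjusted p under 0.05. GNRH1, which encodes GnRH, was at 7.96, 0, 0.151, 0.992 and 0 FPKM in D1 replicates 1 to 5 and at 0, 0, 0, 0.863 and 0.8596 in M6 replicates 1 to 5, and the groups overlapped (exact permutation test, two-sided, p = 0.524). KISS1, which encodes kisspeptin, was listed at 0 in 3 of 5 libraries at each stage and reached at most 0.839 FPKM, and the exact permutation p was 0.563. TAC3, which encodes neurokinin B, was at 6.04, 0.634, 1.15, 1.98 and 0 FPKM at D1 and at 0, 0, 0, 12.6 and 1.35 at M6. Its highest value was in M6 replicate 4 and 3 M6 libraries were listed at 0 (exact permutation p = 0.508). PDYN, the dynorphin gene, was at 0.877 to 128 FPKM at D1 and 2.81 to 77.8 at M6, and the dynorphin receptor OPRK1 at 0.362 to 23.3 and 0.576 to 7.12. Among other receptors of the system, KISS1R was low and did not exceed 0.385 FPKM. TACR3 had a log2 fold change of -0.44 (standard error 0.79, adjusted p = 0.904) and GNRHR of 1.29 (standard error 0.74, adjusted p = 0.728). TAC1, which encodes substance P, was at 461 FPKM in D1 replicate 4 and 281 in M6 replicate 2, the libraries with high DRD1, and at most 24.7 in the others. Its receptor TACR1 had -0.33. NPVF was listed at 0 in all D1 libraries and was above 0 in M6 replicates 4 and 5 alone, at 3.67 and 0.466 FPKM, and NPFFR1, a receptor of its peptides, did not exceed 0.261. Genes linked to the timing of puberty, 17 tested, had a median of 0.063, and the smallest p were those of FGFR1 (-0.59), LIN28B (0.76) and NRG1 (-0.47), all over 0.05.

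Hormone genes of the hypothalamus ranged widely among libraries of each stage. OXT, with the values given above, averaged 4.81 FPKM at D1 and 146 at M6 and had a log2 fold change of 4.97 (standard error 1.97, adjusted p = 0.618), with an unadjusted p of 0.0199. An exact two-sided permutation test over all assignments of these 10 libraries gave p = 0.0635. AVP, vasopressin, was at 176, 1.01, 2.84, 0.286 and 0.5998 FPKM at D1 and at 1.56, 57.7, 1.83, 201 and 63.99 at M6, high in D1 replicate 1 and in M6 replicates 2, 4 and 5 (exact permutation p = 0.238). The transcription factors OTP and SIM1, needed for the neurons that make both hormones, had their highest values in M6 replicate 4, at 11.1 and 13.6 FPKM. The part of the dissected region in the OXT difference was not tested. CRHR1, a receptor of corticotropin-releasing hormone, had an unadjusted p under 0.05, with -1.57 (standard error 0.70, adjusted p = 0.638), and OXTR, the oxytocin receptor, had -1.26. CRH, TRH and SST, which like GHRH control the pituitary, gave exact permutation p of 0.952, 0.802 and 0.198. GHRH was above 0 in D1 replicate 3 alone, at 0.7098 FPKM. Every assignment of the libraries then gives a difference of the same size, so the permutation test could not compare the stages for GHRH. SST, somatostatin, was at 2.49 to 47.3 FPKM at D1 and 9.401 to 123 at M6.

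Of the genes of feeding, 0 of 18 had an unadjusted p under 0.05. NPY, which drives feeding, was at 2.12, 1.34, 14.9, 10.3 and 0.732 FPKM at D1 and at 0.521, 6.702, 0, 0.742 and 1.72 at M6, and AGRP, made by the same neurons, reached 21.7 FPKM in D1 replicate 3 and at most 1.36 at M6. POMC, the precursor of the peptides that oppose them, was at 1.06 to 4.38 and 0.284 to 2.69 FPKM. The exact permutation p of NPY, AGRP and POMC were 0.167, 0.484 and 0.262. HCRT, the orexin gene, reached 183 FPKM in M6 replicate 5, 12.7 in M6 replicate 4 and 9.02 in D1 replicate 1, and it was under 3 in the other 7 libraries. Hypothalamic transcription factors had 1 member at an unadjusted p under 0.05, FOXB1 of the mammillary region, with a log2 fold change of 1.67 (standard error 0.70, adjusted p = 0.633). BSX and TBX3, factors of the ventral hypothalamus, had 1.65 and -0.63.

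Steroid and thyroid signaling held a few genes with larger differences. ESR1, the estrogen receptor alpha, was at 0.9797, 0.171, 0.294, 0.148 and 0.353 FPKM in D1 replicates 1 to 5 and at 0.729, 2.56, 1.91, 5.97 and 1.58 in M6 replicates 1 to 5. D1 replicate 1 was the D1 library within the range of M6, and the log2 fold change was 2.35 (standard error 0.80, adjusted p = 0.535). HSD11B1, which regenerates active cortisol, averaged 5.795 ± 2.07 FPKM at D1 and 11.6 ± 2.94 at M6, with 1.02 (standard error 0.39, adjusted p = 0.617). NR3C2, the mineralocorticoid receptor, had 0.54 (standard error 0.23, adjusted p = 0.638), and SRD5A1, which reduces testosterone and progesterone in brain, had -0.69 (standard error 0.23, adjusted p = 0.52). These were 3 genes higher and 1 lower at an unadjusted p under 0.05 of 16 tested, and the list median was 0.25, or 0.12 without M6 replicate 4. DIO2, which turns thyroxine into the active hormone, was at 5.08, 13.6, 18.8, 7.54 and 4.09 FPKM at D1 and at 3.47, 8.08, 0.527, 0.622 and 2.66 at M6. The groups overlapped through D1 replicates 1, 4 and 5 and M6 replicate 2, with a log2 fold change of -2.04 (standard error 0.62, adjusted p = 0.446). DIO3, which inactivates the hormone, did not exceed 0.2703 FPKM in these libraries. TTR, the thyroxine carrier made by the choroid plexus, had 2.02 (standard error 0.93, adjusted p = 0.651), and the other choroid plexus genes AQP1 and OTX2 had -0.86 and -1.12, with a median of -0.059 over 9 genes.

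The remaining lists are given by their medians and leading members. Of 18 clock genes the median was 0.0097, with NR1D1, a repressor of the clock, higher in every M6 library than in every D1 library and a log2 fold change of 0.87 (standard error 0.37, adjusted p = 0.638). BHLHE41 did not overlap either and had 0.62, and PER3 had 0.64. NR1D1 and BHLHE41 were the 2 genes of the list (11.1%) that were higher without overlap, against 1.36% of all genes. Only 1 of the 18, NR1D1, had an unadjusted p under 0.05 by limma, and the list median changed sign in 8 of the 25 alternatives. The clock hour at which tissue was taken is not given in the sources used here. Of 23 fetal growth genes the median was -0.40, with IGFBP3 lower (-1.57), IGF1R higher (0.53) and PEG10 at -1.30. In the list of DNA methylation, 13 genes, TDG, a DNA glycosylase of demethylation, was lower at an unadjusted p under 0.05, with -0.63 (standard error 0.18, adjusted p = 0.425), and DNMT3B had -0.63. Genes of motile cilia, 20 tested, had a median of 0.43, which was -0.11 without M6 replicate 4. DNAH7, a ciliary dynein, had 0.86, and DNAH9 and RSPH1 had 1.36 and 0.90. Chaperones of the endoplasmic reticulum had a median of 0.034 over 17 genes, with DNAJB11 at -0.54, PDIA4 at 0.26 and SEL1L at 0.18. Immediate early genes had a median of -0.29 over 18 genes, with NPAS4 at -0.93, FOSL2 at -0.54 and FOSB at 0.67, and the median was 0.026 without D1 replicate 4. Genes of cortex, striatum and thalamus had a median of -0.34 over 18 genes, with CALB2 at -1.46, LHX9 at -1.09 and TCF7L2 at -0.69, and its range without single libraries was -0.66 to 0.11, the highest being without D1 replicate 4. Of the pituitary genes, CGA and LHB did not exceed 0.405 and 0.426 FPKM.

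The means of several named genes at M2 and M4 lay between those of D1 and M6 or near that of M6. Over the 4 stages in order of age, FABP3 averaged 156, 46.1, 52.3 and 27.4 FPKM. RASSF10 averaged 5.94, 3.498, 2.16 and 2.39, and it was called in M4 vs. D1 (adjusted p = 0.0389), as were ALAS2 (0.00694), LOC102178586 (0.00926) and MVD (0.0389). IGFALS averaged 0.449, 0.542 and 0.471 FPKM from D1 to M4 and 1.55 at M6. Set against M2 and against M4, M6 had 0 genes called by limma, with 1030 (6.14%) and 1152 (6.87%) genes at an unadjusted p under 0.05. In the comparisons with the same D1 libraries, 0 genes were called in M2 vs. D1 and 9 in M4 vs. D1 (0.0537%), with 2616 (15.6%) and 1460 (8.71%) at an unadjusted p under 0.05.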

How the data were processed

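Hypothalamus of 20 goats was sequenced as strand-specific total RNA depleted of rRNA. Reads were mapped to ARS1.2 with HISAT2 2.0.5, and the authors deposited gene-level FPKM from StringTie 1.3.3b. Read counts were not used here, so the depth behind each FPKM is unknown and no counting interval is given. FPKM is relative to each library's total.

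Genes reaching 0.1 FPKM in 5 or more of the 20 libraries entered the test, made on log2(FPKM + 0.1) in limma 3.58.1 (R 4.3.3), with the 4 stages as groups, a variance trend and Benjamini-Hochberg adjustment. Single hormones were compared by exact two-sided permutation tests. The fit was tested on simulated data. Named genes were 12 per direction without overlap and with a log2 fold change of 1 or more in size (called genes first, then by smallest p), the 3 smallest p of each list, and GnRH, KNDy and other hormone genes. BIRC5, CCNA2, COL11A1, DHCR7, DRD1, FDPS, HBM, HPRT1, KIF11, LOC102168959, METTL24, MKI67, MOG, MSMO1, NKX2-1, NR3C2, OTP, PHF6, PLAC1, SIM1, SLC22A16, SQLE, SREBF2, UBQLN2 and the genes of the last section were named after their values were seen. Some genes that the rule names are not reported here. Members and lists were chosen with earlier results of these data known.

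Alternatives were other pseudocounts, filters, scalings, variance models, library weights, a replicate block, sequencing quality covariates and single libraries left out. The myelin covariate (mean of the 19 mature myelin genes) and the fit without D1 replicate 4 and M6 replicate 4 were chosen after seeing the data. Overlap between the stages was recounted only without D1 replicate 4, M6 replicate 3, M6 replicate 4, and replicate 4 of both stages together.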

Additional observations from a re-analysis of the deposited data

Results flagged for a closer look

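Among 324 groups of 5 libraries (162 named genes at D1 and at M6), 28 had a lowest or highest library whose gap to its neighbour was more than 0.71 of the range on the log2(FPKM + 0.1) scale. For a group chosen without regard to its values, chance flags about 1 in 20. That rate does not apply to genes named after their values were seen, nor to AGRP, CGA and NPFFR1 at M6 and GHRH at D1, where 4 libraries are listed at 0 and the ratio is 1 by construction. Values below are in FPKM, with the library's value first and the range of the other 4 of its stage after it.

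D1 replicate 4 held 9 of them, genes of myelin and of cholesterol synthesis among them. It was the lowest library for CLDN11 (78.9 against 669 to 1032), COL4A1 (4.29 against 7.02 to 8.28), GJC3 (1.696 against 9.57 to 13.6), GRIK3 (4.55 against 11.5 to 15.6) and HAPLN2 (2.52 against 16.8 to 33.8). It was also lowest for MOG (6.91 against 56.3 to 102), MSMO1 (106 against 337 to 503) and NDRG1 (4.51 against 34.6 to 57.2). It was the highest for TAC1 (461 against 15.7 to 24.1).

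M6 replicate 3 held 6, of which several are neuronal genes, and was the lowest library in each. The genes were FABP3 (8.32 against 29.6 to 33.9), GABRA3 (0.587 against 6.44 to 14.7), RAB3A (5.48 against 29.3 to 46.6), SCN3B (1.41 against 4.598 to 7.28), STMN2 (13.996 against 130.5 to 239) and TACR1 (0 against 0.90002 to 1.62).

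M6 replicate 4 held 6. It was lowest for CLDN11 (37.5 against 298 to 648) and SFRP1 (3.21 against 11.4 to 13.5) and highest for LOC102187665 (8.43 against 6.1001 to 6.502). AGRP, CGA and NPFFR1 were listed at 0 in the other 4 M6 libraries and at 1.36, 0.1303 and 0.261 in this one.

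D1 replicate 5 was highest for CTSS (71.2 against 38.6 to 41.4) and lowest for STMN2 (218 against 320.2 to 357) and SYT1 (60.5 against 153 to 203). D1 replicate 3 was highest for AGRP (21.7 against 0 to 0.168) and GHRH (0.7098 against 0 to 0). M6 replicate 2 was lowest for LIN28B (3.404 against 5.59 to 5.94), and M6 replicate 5 was highest for TBX3 (0.651 against 0.244 to 0.327).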

How the results depend on the processing

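The number of genes called at M6 against D1 (0 higher, 1 lower) moved with the processing. Genes higher at M6 numbered 34 under library quality weights, 3 without D1 replicate 4 and M6 replicate 4 together and 22 with the myelin covariate. Genes lower numbered 61, 11 and 24 in the same order. There were 0 genes lower with a pseudocount of 1 or 0.01 FPKM, with a mean of at least 1 FPKM (a filter that left ALAS2 out), with only D1 and M6 libraries, with TPM rescaling, or with mapping rate or Q30 as a covariate. There were 2 without the filter, 2 with median-ratio scaling and 3 without the variance trend. Without single replicates the number ranged from 0 to 4 higher and from 0 to 19 lower, the highest being without D1 replicate 5 for higher and without D1 replicate 4 for lower genes. The cause of these moves was not tested. ALAS2 stayed lower in every alternative that tested it, with adjusted p between 0.000449 and 0.349.

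The replicate numbers did not pair the libraries. The correlations of deviations between same-numbered D1 and M6 libraries were -0.014, -0.149, 0.004, 0.282 and 0.032, and 0 of 5 correlated best with its own number. With the replicate number as a block, 0 genes were higher and 0 lower.

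Of the log2 fold changes of single genes and medians of lists under the alternatives, 3750 kept direction and side of the threshold or, where nothing was called, moved within limits, 251 moved beyond those limits (a list median by over 0.1, or a gene that was not called changing sign by more than its standard error), 63 passed the threshold newly, 14 no longer passed it and 0 changed the direction of a called value. With no counts, low FPKM such as those of ALAS2, KISS1 and GNRH1 carry an unknown counting error.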

Other observations

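ACAT2, ACSS2, IDH1 and PCYT2, chosen after their values were seen, had lower means at M6, and none passed the adjusted threshold. ACAT2, which joins 2 acetyl-CoA at the entry of the mevalonate pathway, was at 99.8, 80.7, 157, 18.1 and 77.5 FPKM in D1 replicates 1 to 5 and at 33.8, 15.5, 31.3, 20.4 and 28.3 in M6 replicates 1 to 5, with a log2 fold change of -1.51 (standard error 0.45, adjusted p = 0.446) by limma. ACSS2, which makes acetyl-CoA from acetate, had -1.16 (standard error 0.32, adjusted p = 0.364). IDH1, a source of NADPH, was at 213, 227, 246, 41.5 and 101 FPKM at D1 and at 41.3, 34.6, 39.9, 27.9 and 46.4 at M6, with -1.88 (standard error 0.39, adjusted p = 0.132). PCYT2, of phosphatidylethanolamine synthesis, had -1.03 (standard error 0.24, adjusted p = 0.242). D1 replicate 4, poor in myelin, held the lowest D1 value of ACAT2, IDH1 and PCYT2.

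With the myelin level of each library as a covariate, 22 genes were called higher (0.131%) and 24 lower (0.143%) at M6 by limma. ANLN, a cytoskeletal protein found in myelin, averaged 55.8 FPKM at D1 and 175 at M6, with an adjusted log2 fold change of 1.75 (adjusted p = 0.000802). CRYAB, a small heat shock protein, had 1.27 (adjusted p = 0.0107), S1PR5, a sphingosine phosphate receptor of oligodendrocytes, had 1.53 (adjusted p = 0.0448) and NDRG1 had 1.02 (adjusted p = 0.0183). On the lower side, GJC3, a glial connexin, had -2.28 (adjusted p = 0.00307), and SFRP1, a WNT inhibitor, had -1.79 (adjusted p = 0.00641). These genes and this fit were chosen after their values were seen.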
